A study of Mus musculus with 9 samples.

Results

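The complement genes C1qa, C1qb, C1qc, C3, C4b, Cfb, Cfp, C3ar1 and C5ar1 were followed across macrophages expanded from yolk sac (YS), fetal liver (FL) and bone marrow (BM). They were taken by gene symbol, in a choice made with earlier results of these data known, and all 9 were found among the 24411 genes of the deposited table. Of these 9 genes, 8 reached 1 TPM in at least 3 of the 9 libraries and were tested among 11753 genes, and C4b did not. TPM, a measure of transcript abundance, divides the reads of a gene by its transcript length and scales each library to 1 total, so that levels can be compared between genes as well as between lines.

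Bulk RNA-seq had been done on 3 YS lines, 3 FL lines and 3 BM lines, with 1 library per line. All came from C57BL/6 mice and grew in medium with fetal calf serum and recombinant human M-CSF, the growth factor on which macrophages depend, with no other stimulus described. Yolk sacs were taken at E9.5 and fetal livers at E14.5, and the marrow came from adult mice. Each line was a bulk culture from its own dish or well, expanded over months from colonies that outgrew the starting cells, and the starting cells had been pooled from several mice. The p-values below therefore measure the spread between cultures and not between animals. A lower level in such a bulk culture can mean fewer cells that express the gene or less RNA per cell, and these cannot be told apart. The number of reads per library is unknown, since TPM carries no depth.

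All 10 macrophage markers examined were found, and Csf1r, the M-CSF receptor, ranged from 1086 to 2441 TPM over the 9 lines. The marker sums were 7447 to 13480 TPM in YS, 15174 to 30932 TPM in FL and 17676 to 18647 TPM in BM lines. Much of their spread came from Lyz2. This gene alone was at 1163 to 3531 TPM in YS, 5806 to 21976 TPM in FL and 5986 to 7841 TPM in BM lines. Spi1 stayed at 364 to 456 TPM and Tyrobp at 1852 to 3312 TPM over the 9 lines. Lgals3 was at 2.76 TPM in FL line 2 and at 841 TPM or more in the others, and Fcgr1 was at 110 to 330 TPM in YS and FL lines. Summed markers of fibroblasts, mast cells and lymphocytes did not exceed 1.55 TPM in any line. Trf, which was counted as a hepatocyte or endoderm marker but is not specific to those cells, was at 59.7 to 125 TPM in YS and FL lines, whereas Alb, the defining hepatocyte gene, was at most 0.21 TPM in any line. Afp reached 20.5 TPM and Apoa2 5.48 TPM. BM line 2 stood apart from the other BM lines, with 215 TPM of the globin gene Hba-a1 against 0.30 TPM in each of the other two, and 42.1 TPM of Fcgr1 against 5.47 and 1.68 TPM. The erythroid markers summed to 375 TPM in that line, with Hba-a2 at 102 TPM, Hbb-y at 43 TPM and Hbb-bt at 12.6 TPM, and to at most 16.5 TPM in any YS or FL line. Of these, Hba-a2 reached 14.2 TPM in FL line 3, Hba-a1 8.62 TPM and Epor 6.43 TPM in YS line 1.

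Complement is a cascade of serum and tissue proteins that tags microbes and dying cells for uptake. The classical pathway starts when C1q, built from the A, B and C chains, binds its target. The classical, lectin and alternative pathways meet at C3, whose cleavage deposits C3b on the surface and releases the peptide C3a. Most plasma complement comes from the liver, but macrophages are the main source of C1q in many tissues and also make C3, factor B and properdin. They sense the released peptides C3a and C5a through the receptors C3aR and C5aR1.

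The 3 C1q chains were the most abundant of these transcripts in YS and FL lines, and each was lower in every BM line than in any YS or FL line. C1qa, which encodes the A chain, had levels of 1039, 2750 and 3533 TPM across YS lines 1 to 3, of 4762, 1994 and 3843 TPM across FL lines 1 to 3 and of 444, 670 and 279.7 TPM across BM lines 1 to 3. YS line 1 was the lowest of the YS lines and FL line 2 the lowest of the FL lines, and both stayed above the highest BM line. The mean of the YS lines was 2441 ± 1275 TPM (SD, n = 3), that of the FL lines 3533 ± 1410 TPM and that of the BM lines 465 ± 196 TPM. C1qa was 5.25-fold higher in YS than in BM lines by these means, with a log2 fold change of 2.30 ± 0.52 (SE) on the log2(TPM + 1) scale and an adjusted p of 0.0142 (limma, Benjamini-Hochberg over all genes tested). In FL lines it was 7.60-fold higher than in BM lines, with a log2 fold change of 2.92 ± 0.52 and an adjusted p of 0.00599 (limma).

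C1qb and C1qc had the same order of groups. C1qb, for the B chain, reached 1060, 1960 and 2565 TPM in the YS lines, 3235, 1492 and 2662 TPM in the FL lines and only 363, 465 and 186 TPM in the BM lines. Again the YS and FL lines overlapped with each other and the BM lines lay below them all. The log2 fold change of C1qb against BM lines was 2.46 ± 0.44 (SE) in YS lines (adjusted p = 0.00651, limma) and 2.89 ± 0.44 in FL lines (adjusted p = 0.00333, limma). C1qc, for the C chain, was at 1107, 2395 and 3174 TPM in the YS lines, 3525, 2021 and 3618 TPM in the FL lines and 504, 612 and 346 TPM in the BM lines. It had the smallest fold of the 3 chains in both comparisons. Its log2 fold change was 2.10 ± 0.41 in YS lines (adjusted p = 0.00839, limma) and 2.64 ± 0.41 in FL lines (adjusted p = 0.00336, limma).

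The C1q differences from BM lines passed the thresholds in all 21 alternatives of pseudocount, filter, scaling, model and lines, with adjusted p (limma) of at most 0.0599 for YS lines and 0.0308 for FL lines. Without BM line 2, the log2 fold changes were 2.61, 2.74 and 2.28 for C1qa, C1qb and C1qc in YS lines and 3.23, 3.17 and 2.82 in FL lines. Over all 11753 genes, the median log2 fold change between YS and BM lines was 0.11, and relative to it the C1q chains were higher in YS lines by 2.20, 2.36 and 1.99. The median became -0.01 with quantile normalization, where the chains were higher by 2.26, 2.46 and 2.06. The summed level of the endothelial markers, from 8 of 8 genes found, also differed between these groups. It spanned 13.6 to 76.2 TPM among YS lines, 19.3 to 51.9 TPM among FL lines and 0.11 to 2.08 TPM among BM lines. In FL lines Kdr, at 17.4 to 50.4 TPM, made up most of it, with Egfl7 at most 0.59 and Pecam1 at most 0.25 TPM. In YS lines Kdr, Egfl7 and Pecam1 did, but Kdr was at only 0.29 TPM in YS line 1. Emcn and Cldn5 were listed at 0 in all 9 lines, and Cdh5 did not exceed 1.38 TPM. Neutrophil markers, with 9 of 10 genes found, summed to 2.41 to 28.9 TPM among YS lines, 11.5 to 26.9 TPM among FL lines and 3.66 to 5 TPM among BM lines, mainly from S100a8, at up to 25.1 TPM, and Cebpe, while Elane, Ngp and S100a9 were listed at 0 in all 9 lines. Trf was at most 6.52 TPM in BM lines. The part of these markers in the C1q difference was not tested.

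**Figure D1:**
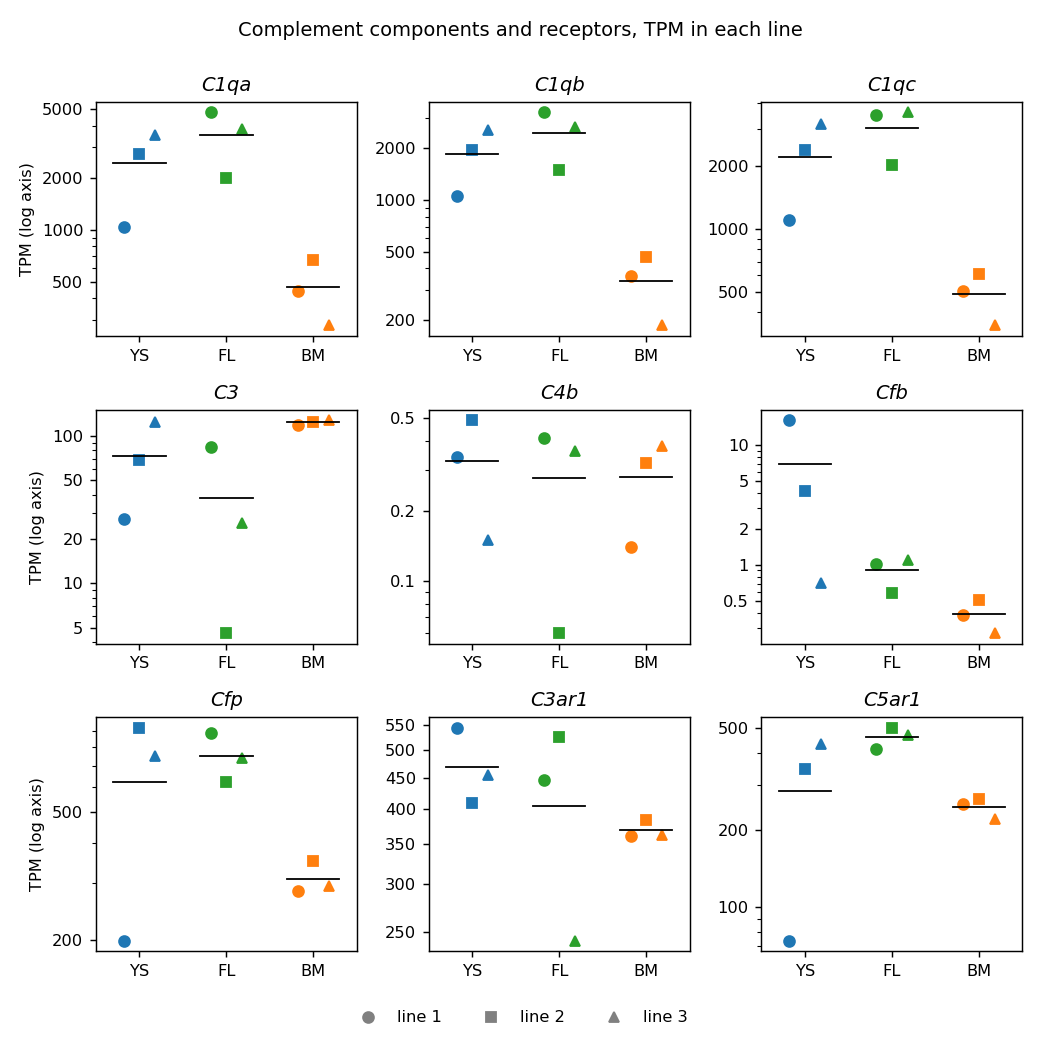
TPM of each of the 9 genes in each line, on a log axis whose range differs between panels. Symbols mark lines 1, 2 and 3 of each group and the black bar the mean TPM of the group (n = 3). The C1q chains were lowest in the 3 BM lines, C3 was steady only in BM lines, and YS line 1 lay far below the other YS lines for Cfp and C5ar1.

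Functional C1q holds the 3 chains in equal numbers, whereas their transcripts were similar but not equal in abundance, with C1qb mostly the least. C1qa made up 36.8% ± 2.82 (SD, n = 9) of the summed C1q TPM, C1qb 27.4% ± 2.61 and C1qc 35.7% ± 3.37. C1qb was the smallest share in 8 of the 9 lines, the exception being YS line 1, where C1qa was at 32.4%, C1qb at 33.1% and C1qc at 34.5%. The C1qc share averaged 34.2% ± 0.42 for YS lines, 34.3% ± 3.28 for FL lines and 38.7% ± 3.82 for BM lines (SD, n = 3), with the YS lines at 33.7% to 34.5%, below all BM lines at 35.0% to 42.6%, and the FL lines overlapping both. The summed level spanned 3206 to 9272 TPM among YS lines, 5506 to 11522 TPM among FL lines and 812 to 1748 TPM among BM lines. The lines thus differed by up to 14.2-fold in total C1q, while the share of any chain stayed between 22.9% and 42.6%. In FL line 1 the 3 chains held 1.15% of all transcripts, and C1qa was the 10th most abundant gene of that library. In the BM lines C1qa ranked between 216th and 566th.

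**Figure D2:**
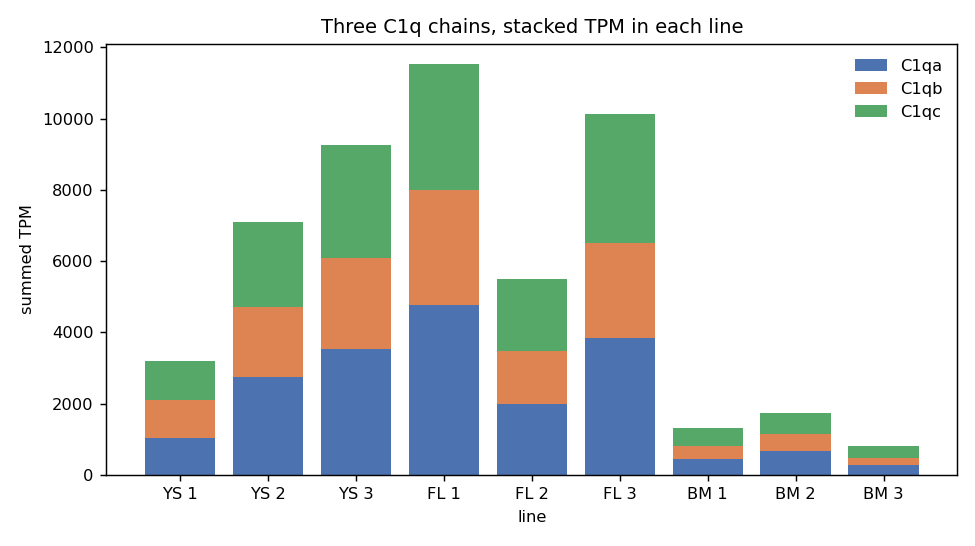
Summed TPM of the C1q chains in each line, stacked by chain (bars start at 0, 1 library per bar). The total ran from 812 TPM in BM line 3 to 11522 TPM in FL line 1, and each chain held between 22.9% and 42.6% of every bar.

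C1qb, C1qc and C1qa are consecutive protein-coding genes on chromosome 4, between Ephb2 and Epha8. By the root mean square difference of centred log2(TPM + 1) over the 9 lines, the gene whose pattern was nearest to C1qa was C1qb, at 0.18, followed by C1qc at 0.21 and Aoah at 0.26. For C1qb the nearest were C1qa at 0.18 and then Aoah and C1qc, both at 0.23, and for C1qc they were C1qa at 0.21, C1qb at 0.23 and Aoah at 0.30. Aoah, which encodes a hydrolase that removes acyl chains from bacterial lipopolysaccharide, was at 17.2, 38.8 and 43.5 TPM in the YS lines, 61.3, 38.8 and 40.5 TPM in the FL lines and 5.89, 10.04 and 2.55 TPM in the BM lines. Only the 3 nearest genes were kept for each chain, and the other chains were among them. That no further gene from outside the cluster was named follows from this limit. The likeness of Aoah follows from choosing it by its pattern over these lines.

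C3, the component at which the pathways meet, went the other way. It was at 118.6, 124.8 and 127.8 TPM in the BM lines, at 27.1, 68.4 and 125.0 TPM in the YS lines and at 84.2, 4.60 and 25.5 TPM in the FL lines. The BM lines lay within 1.08-fold of each other, while the highest YS line was 4.61 times and the highest FL line 18.3 times the lowest of its group. All FL lines were below all BM lines, and YS line 3 reached the BM level. The mean of 38.1 ± 41.2 TPM (SD, n = 3) in FL lines was below the 123.7 ± 4.73 TPM of BM lines, with a log2 fold change of -2.42 ± 0.89 (SE) and an adjusted p of 0.0918 (limma), inside the threshold of 0.1. In YS lines the mean was 73.5 ± 49.1 TPM, and the log2 fold change against BM lines was -0.99 (95% interval -3.02 to 1.03, adjusted p = 0.427, limma).

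The C3 difference between FL and BM lines was not stable. It lost its call in 11 of 21 alternatives, over which the adjusted p (limma) ran from 0.0248 to 0.208. The log2 fold change shrank to -1.39 without FL line 2 (adjusted p = 0.196, limma) and grew to -3.36 without FL line 1 (adjusted p = 0.0248, limma). Its value moved little, but the call was also lost, without YS line 2 (adjusted p = 0.12), FL line 3 (0.16), BM line 1 (0.199), BM line 2 (0.183) or BM line 3 (0.208) in the same kind of limma fit. C3 is also a liver product. The summed hepatocyte or endoderm markers, with 10 of 10 genes found, spanned 113.9 to 128.7 TPM among FL lines, 70.2 to 127.6 TPM among YS lines and 5.57 to 16.7 TPM among BM lines. Most of the YS and FL sums was Trf, at 59.7 to 125 TPM, which is not specific to those cells. Afp was at 8.84 to 20.5 TPM in FL, 1.03 to 6.44 TPM in YS and 2.95 to 12.2 TPM in BM lines. Apoa2 was lower in FL lines, at 0.41 to 0.75 TPM, than in BM lines, at 2.21 to 3.27 TPM. Fgb, Serpina1a and Hnf4a were listed at 0 in all 9 lines. The part of these markers in the C3 difference was not tested.

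The 3 tested genes whose pattern was nearest to that of C3 were Traf1 at a difference of 0.47, Clec4e at 0.59 and Zdhhc2 at 0.64, farther away than the C1q chains were from each other. Traf1, an adaptor of TNF receptor signaling, was at 1.92, 10.99 and 18.96 TPM in the YS lines, 7.06, 0.52 and 2.30 TPM in the FL lines and 25.4, 16.5 and 24.5 TPM in the BM lines. Clec4e, which encodes the C-type lectin Mincle, was lowest in FL line 2 at 60.0 TPM and highest in BM line 1 at 653 TPM. Zdhhc2, a palmitoyltransferase gene, was at 1.38 TPM in FL line 2 and at 33.2 to 40.4 TPM in the BM lines. All 3 genes had their lowest level in FL line 2, as C3 did, which follows from choosing them by their likeness to C3 over these lines.

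Promoter sequence from RefSeq (GRCm38.p6) was at hand for 6 of the 9 genes, the exceptions being C1qa, C4b and Cfb. The 250 bases before the start are shown for C1qb and C1qc, neighbours that moved together, and for C3, which had the opposite order of groups. Each is written 5′ to 3′ on the strand of the gene, with matches to the motifs named after them in capitals.
C1qb, chr4:136886201-136886450, minus strand: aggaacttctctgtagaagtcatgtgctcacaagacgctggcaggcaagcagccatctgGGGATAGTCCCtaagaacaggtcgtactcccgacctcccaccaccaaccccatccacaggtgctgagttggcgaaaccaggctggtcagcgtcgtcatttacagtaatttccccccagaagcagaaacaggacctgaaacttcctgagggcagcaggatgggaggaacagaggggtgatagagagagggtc
C1qc, chr4:136892915-136893164, minus strand: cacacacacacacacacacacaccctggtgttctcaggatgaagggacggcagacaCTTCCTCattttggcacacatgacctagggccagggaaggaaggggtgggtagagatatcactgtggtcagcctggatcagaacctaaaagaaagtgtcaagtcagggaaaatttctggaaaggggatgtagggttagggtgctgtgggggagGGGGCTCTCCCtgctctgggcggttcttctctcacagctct
C3, chr17:57228137-57228386, minus strand: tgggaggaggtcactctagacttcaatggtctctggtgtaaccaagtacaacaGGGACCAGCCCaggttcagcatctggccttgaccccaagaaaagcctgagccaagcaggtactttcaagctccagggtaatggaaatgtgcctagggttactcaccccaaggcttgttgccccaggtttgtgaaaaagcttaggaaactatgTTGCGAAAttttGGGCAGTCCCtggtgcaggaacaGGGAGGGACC
The motifs were searched as letters on both strands: PU.1 as GAGGAAG, a MAF half-site as TGCTGAC, an ETS-IRF composite as GGAA and GAAA with 2 bases between them, C/EBP as TTGC and AA with 2 bases between them, GAS as TTC and GAA with 3 bases between them and NF-kB as GGG and CC with 5 bases between them. C1qc held 1 match to PU.1 letters, read on the opposite strand from position -194 to -188 relative to the start, a match found in 10.6% of 32851 promoter windows of the same length. C3 held 1 match to C/EBP from position -45 to -38, found in 9.56% of windows. Stretches with NF-kB letters stood once in C1qb, once in C1qc and at 3 places in C3, but 45.8% of all windows hold such letters. Of the promoters not printed, Cfp and C3ar1 held 1 NF-kB match each and C5ar1 none of the 6 motifs. No match to the MAF (3.81% of windows), ETS-IRF (2.3%) or GAS (7.02%) letters stood in any of the 6 windows, which says only that these letters are not there. Such matches overlap between strands where the letters are close to a palindrome, and they describe the sequence, not binding.

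C4b, the component cleaved by the C1 complex next after C1q, was close to absent. It was at 0.34, 0.49 and 0.15 TPM in the YS lines, 0.41, 0.06 and 0.36 TPM in the FL lines and 0.14, 0.32 and 0.38 TPM in the BM lines, with means of 0.33, 0.28 and 0.28 TPM. The groups overlapped and none of the 9 libraries reached 1 TPM. Of the 75-nt windows of its transcript, the read length of the libraries, 23.5% also stand in its near copy C4a, which was at most 0.38 TPM, so the split between these 2 genes is uncertain.

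Of the alternative pathway, Cfb was low and Cfp was abundant. Cfb encodes factor B, the protease subunit of the C3 convertase of that pathway. It was at 16.3, 4.19 and 0.71 TPM in the YS lines, 1.01, 0.58 and 1.11 TPM in the FL lines and 0.38, 0.51 and 0.27 TPM in the BM lines. YS line 1 alone set most of the YS mean of 7.05 ± 8.16 TPM (SD, n = 3), and the YS and FL lines overlapped through YS line 3. Cfb passed the filter through 4 libraries, none of them a BM line. Against BM lines it was higher in YS lines with a log2 fold change of 1.95 ± 0.69 (SE, adjusted p = 0.0647, limma) and not called in FL lines with 0.45 ± 0.69 (adjusted p = 0.694, limma).

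The call of Cfb was kept in 11 of the 19 alternatives that gave a value, with adjusted p (limma) between 0.00868 and 0.166. Without YS line 1 the log2 fold change was 1.11 (adjusted p = 0.103, limma), and the call was also lost without YS line 2 (adjusted p = 0.115), BM line 1 (0.151), BM line 2 (0.124) or BM line 3 (0.16) and with quantile normalization (0.119) in the same kind of limma fit. The difference itself hardly moved in the 4 fits without YS line 2 or a BM line, at 1.89 to 2.02 on the log2 scale. The log2 fold change was 3.01 with a pseudocount of 0.1 and 1.07 with one of 4, and was called with both. Without YS line 3 it was 2.77 (adjusted p = 0.00868, limma). Of the 75-nt windows of the Cfb transcript, 81.2% also stand in Gm20547, a gene model of GENCODE M21 that has no row in the deposited table. How reads common to both were assigned is not given in the sources used here, which leaves the level of Cfb uncertain. The genes nearest to Cfb in pattern were Sigirr at 0.29, Scimp at 0.29 and Zbtb32 at 0.32. They were highest in YS line 1, at 20, 14.1 and 10.7 TPM, which follows from choosing them by their likeness to Cfb over these lines.

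Cfp, which encodes properdin, the stabilizer of the alternative pathway convertase, was at 198.4, 920 and 752 TPM in the YS lines, 883, 620 and 741 TPM in the FL lines and 284, 352 and 295 TPM in the BM lines. All FL lines and YS lines 2 and 3 were above all BM lines, whereas YS line 1 was the lowest of the 9. The FL lines had 2.41 times the mean of BM lines, with a log2 fold change of 1.26 ± 0.49 (SE) that missed the threshold (adjusted p = 0.11, limma). The YS lines were at 0.74 ± 0.49 (adjusted p = 0.287, limma). Without YS line 1, Cfp was called in both comparisons with BM lines, at 1.43 in YS lines (adjusted p = 0.00368, limma) and 1.26 in FL lines (adjusted p = 0.00161, limma). Over all 21 alternatives the adjusted p (limma) ran from 0.00368 to 0.647 for YS lines and from 0.00161 to 0.251 for FL lines. The call in FL lines was also made without YS line 2 (adjusted p = 0.0828, limma) and when only the 6 lines compared were fitted (0.00234).

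The receptors for the anaphylatoxins were expressed in all lines. C3ar1, the receptor for C3a, varied least of the 8 tested genes over the 9 lines, with an SD of 0.35 on the log2 scale. It was at 545, 409 and 454 TPM in the YS lines, 446, 526 and 242 TPM in the FL lines and 361, 383 and 362 TPM in the BM lines. Every YS line was above every BM line, but by a log2 fold change of 0.34 only (95% interval -0.25 to 0.93, adjusted p = 0.352, limma). For FL against BM lines the log2 fold change was 0.06 (95% interval -0.53 to 0.65, adjusted p = 0.894, limma), and its sign turned with median-of-ratios scaling and without FL line 1 or FL line 2.

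C5ar1, the receptor for C5a that guides macrophages toward complement activation, was at 73.8, 345 and 433 TPM in the YS lines, 412, 500 and 468 TPM in the FL lines and 253, 264 and 220.7 TPM in the BM lines. The FL lines were above all BM lines, YS lines 2 and 3 were also above them, and YS line 1 was far below all the other lines. In FL lines the mean was 460.02 ± 44.3 TPM (SD, n = 3) against 246 ± 22.4 TPM in BM lines, a log2 fold change of 0.90 ± 0.55 (SE) that was not called (adjusted p = 0.294, limma). Its adjusted p (limma) ran from 0.00228 to 0.491 over 21 alternatives, with a log2 fold change that stayed below the 2-fold threshold. The lowest values came with only the 6 lines compared (0.00228) and without YS line 1 (0.00233), at the same 0.90. The fit over all 9 lines uses a spread common to the groups. The SD on the log2 scale was 1.38 in YS, 0.14 in FL and 0.13 in BM lines. In YS lines the log2 fold change was -0.13 ± 0.55 (adjusted p = 0.874, limma), and without YS line 1 it turned to 0.66 (adjusted p = 0.015, limma), below the 2-fold threshold. For YS lines the adjusted p (limma) ran from 0.015 to 0.942.

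YS line 1 was the lowest YS line for 6 of the 9 genes and the highest for 2, Cfb and C3ar1. FL line 2 was the lowest FL line for 7 genes and BM line 2 the highest BM line for 7. These counts include the C1q chains, which moved together, and C4b, which was not tested. The same counts were not made over all tested genes. The 3 BM lines were closest to each other for C3ar1, C3 and C5ar1, where the highest was 1.06, 1.08 and 1.20 times the lowest. YS line 1 had 1086 TPM of Csf1r against 1882 and 1889 TPM in the other YS lines, and 25.1 TPM of the granulocyte factor Cebpe against 8.35 and 1.48 TPM. The part of these values in the low Cfp and C5ar1 of YS line 1 was not tested.

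**Figure D3:**
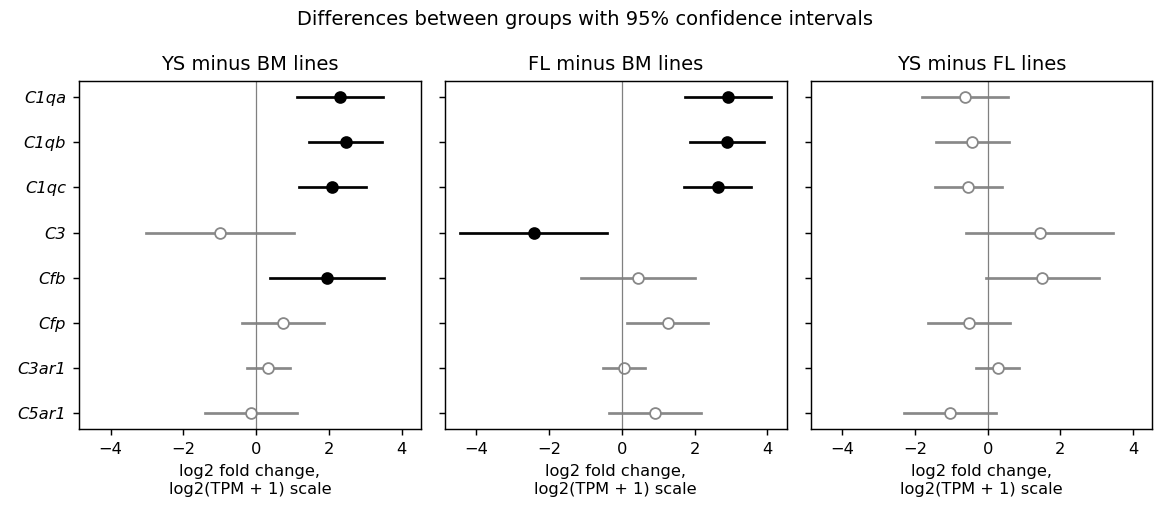
Log2 fold changes of the 8 tested genes on the log2(TPM + 1) scale (points) with 95% confidence intervals from limma (lines), by comparison; filled black points passed a false discovery rate of 0.1 and a 2-fold change, open grey points did not. The C1q chains lay at 2.10 to 2.92 in both comparisons with BM lines, C3 was lower in FL lines, and no point was filled between YS and FL lines.

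Of the 8 tested members, 4 were higher past the thresholds and 0 lower when YS were compared with BM lines, where 12.8% of all tested genes were called, 7.57% upward and 5.22% downward. The 4 were the C1q chains and Cfb. Cfb passed the filter through YS and FL lines alone, so that its call with the filter is no independent sign of a difference. With no filter, its log2 fold change was 1.95 (adjusted p = 0.0981, limma), still past the thresholds. Between FL and BM lines, 3 were called higher and 1 lower, where 10.3% of all tested genes were called, 6.01% higher and 4.3% lower. Here the C1q chains were higher and C3 was lower. The median log2 fold change of the 8 genes was 1.34 in YS and 1.08 in FL lines against BM lines, beside 0.11 and 0.09 over all tested genes. The C1q chains, neighbours that moved together, weigh on both the counts and these medians, so the 8 genes are not 8 independent results. Both comparisons used the same BM lines. The YS and BM lines did not overlap for 5 of the 8 members, all with the YS lines higher, but 49% of all tested genes did not overlap between those groups, 30.3% with YS lines higher and 18.7% with YS lines lower. The FL and BM lines did not overlap for 7 members, 6 of them higher in FL lines, beside 49.5% of all tested genes, 31% with FL lines higher and 18.5% with FL lines lower.

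Of all genes called between YS and BM lines, 59.2% were higher in YS lines, and this share became 48.7% with quantile normalization and 50.7% with median-of-ratios scaling. For FL against BM lines the share was 58.3%, and 49.96% with quantile normalization. The C1q chains were called higher in both comparisons under each of these scalings.

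Between YS and FL lines none of the 8 members was called, and none had groups that did not overlap. In that comparison 3.79% of all tested genes were called (1.95% with YS lines higher and 1.85% with YS lines lower), and 26.1% did not overlap, 12.6% with YS lines higher and 13.5% with YS lines lower. At an unadjusted p under 0.05, 0 of the 8 passed in the limma fit, beside 25.7% of all tested genes. The intervals of the differences were wide: C1qa had a log2 fold change of -0.62 (95% interval -1.80 to 0.56), C1qb of -0.42 (-1.43 to 0.59) and C1qc of -0.54 (-1.46 to 0.39). Without YS line 1 these became -0.09, -0.06 and -0.10. C3 was at 1.43 (95% interval -0.59 to 3.45) and Cfb at 1.505 (-0.06 to 3.07), intervals that reach far beyond the 2-fold threshold. C3 was called without FL line 1, at 2.36 (adjusted p = 0.0998, limma), and Cfb without YS line 3, at 2.33 (adjusted p = 0.0442, limma). Over their alternatives the adjusted p (limma) ran from 0.0998 to 0.77 for C3 and from 0.0442 to 0.448 for Cfb. The log2 fold change was -0.52 for Cfp (adjusted p = 0.53, limma), 0.28 for C3ar1 (adjusted p = 0.523, limma) and -1.04 for C5ar1 (adjusted p = 0.272, limma).

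**Figure D4:**
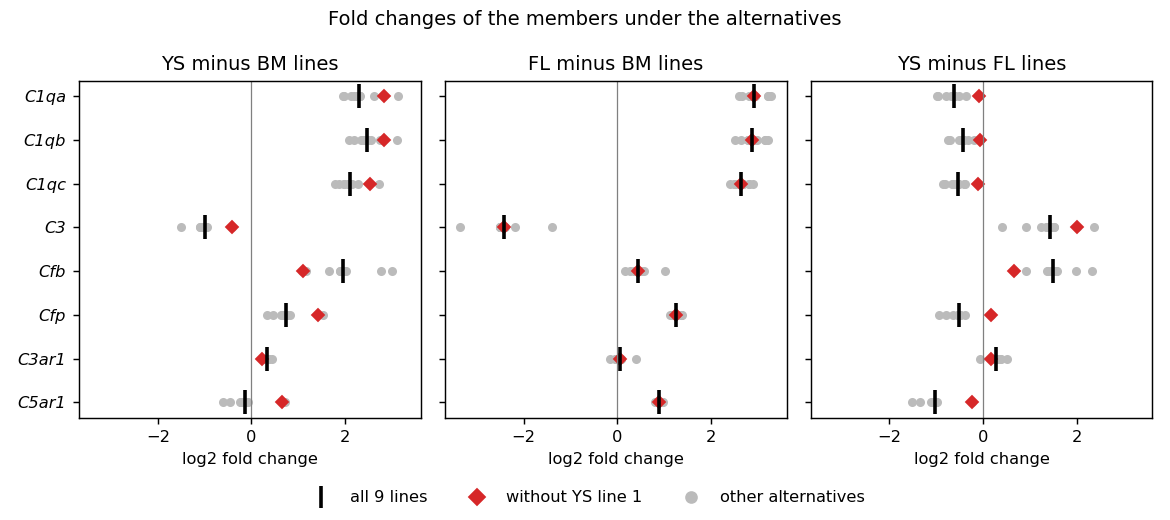
Log2 fold changes of the 8 tested genes with all 9 lines (black bars), without YS line 1 (red diamonds) and under the other alternatives (grey points), by comparison. Without YS line 1 the value of C5ar1 between YS and BM lines moved from -0.13 to 0.66 and that of Cfp from 0.74 to 1.43, whereas all values of the C1q chains against BM lines stayed at 1.78 or above.

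By mean TPM, the groups ranked FL, YS, BM for each C1q chain, for Cfp and for C5ar1, although on the log2(TPM + 1) scale the mean of C5ar1 was lower in YS than in BM lines, by the -0.13 given above. They ranked YS, FL, BM for Cfb and C3ar1 and BM, YS, FL for C3. Of neighbours in these orders, only YS and BM lines for the C1q chains differed past the thresholds in the limma fit. Within the YS lines the mean levels ran from C1qa through C1qc and C1qb to Cfp, C3ar1, C5ar1, C3, Cfb and C4b. In the BM lines C1qc and C1qa came first at 487 ± 133 and 465 ± 196 TPM (SD, n = 3), close to C3ar1 at 369 ± 12.5 TPM, C1qb at 338 ± 141 TPM and Cfp at 310.4 ± 36.8 TPM.

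Of 42 other genes of the complement system, 11 were tested. Most of the rest were close to absent: Cfd, C6, C7, C8a, C8b, Serping1, Cfi, Vtn, Cpn2, Cd55b, Cd59b, Mbl1, Mbl2, Fcnb and Colec10 were listed at 0 in all 9 lines, C2 was at most 0.22 TPM, Hc, which encodes C5, at most 0.03 TPM and C9 at most 0.08 TPM. The lines thus had C1q, C3 and properdin transcripts, but hardly any transcript of C2, C4 or, C8g aside, the terminal components. Among the untested genes, Masp1 reached 4.63 TPM in YS line 3 and Vsig4, a receptor for C3b on tissue macrophages, 11.95 TPM in FL line 2 and at most 0.13 TPM in the other lines. C1s2 and Cd46 reached 1.13 and 1.02 TPM.

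In YS against BM lines, 1 of the 11 was called higher and 2 lower, beside 7.57% and 5.22% of all tested genes. Clu, which encodes clusterin, an inhibitor of the membrane attack complex, was at 66.6, 7.81 and 1.59 TPM in the YS lines, 0, 0.30 and 0.51 TPM in the FL lines and 0.17, 0.63 and 0.08 TPM in the BM lines. All YS lines were above all others, led by YS line 1. Clu passed the filter of 1 TPM in 3 libraries through the YS lines alone, so that its call with the filter is no independent sign of a difference. With no filter, its log2 fold change against BM lines was 3.18 (adjusted p = 0.0667, limma), still past the thresholds. C1s1 encodes C1s, a protease of the C1 complex. It was listed at 0.10, 0 and 0.06 TPM in the YS lines and at 0.70, 0 and 1.08 TPM in the FL lines. In the BM lines it was at 0.72, 1.61 and 2.22 TPM (log2 fold change of YS against BM lines -1.21, adjusted p = 0.0339, limma). Of its 75-nt windows, 14.7% also stand in C1s2. C1s1 passed the filter through FL line 3 and BM lines 2 and 3 alone, so that its call with the filter is no independent sign of a difference either. With no filter, it was still called (adjusted p = 0.0314, limma). Itgb2, the beta chain of the complement receptors CR3 and CR4, was at 190, 229.6 and 372 TPM in the YS lines and 529, 484 and 529.9 TPM in the BM lines (log2 fold change -1.02, adjusted p = 0.0192, limma). It was in between in the FL lines, at 306, 477 and 422 TPM.

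Whether these genes were called depended on single lines. Without any 1 of the YS lines, Clu no longer reached 1 TPM in 3 libraries and was not tested, and it was not called without BM line 1 (adjusted p = 0.112, limma) or BM line 3 (adjusted p = 0.117, limma), where its log2 fold change was 3.12 and 3.07. The call of Itgb2 was lost without YS line 1, YS line 2, BM line 1 or BM line 3, with log2 fold changes of -0.81, -0.95, -0.998 and -0.997. C1s1 fell below the filter without FL line 3, BM line 2 or BM line 3. Its log2 fold change was -3.33 with a pseudocount of 0.1 and -0.44 with one of 4, where the call was lost for its size (adjusted p = 0.0414, limma). That of Clu was 4.87 and 1.96 with these pseudocounts. No gene of the 11 was called between FL and BM lines in the limma fit with all 9 lines, and 3 of them had an unadjusted p under 0.05, beside 33.6% of all tested genes.

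**Figure D5:**
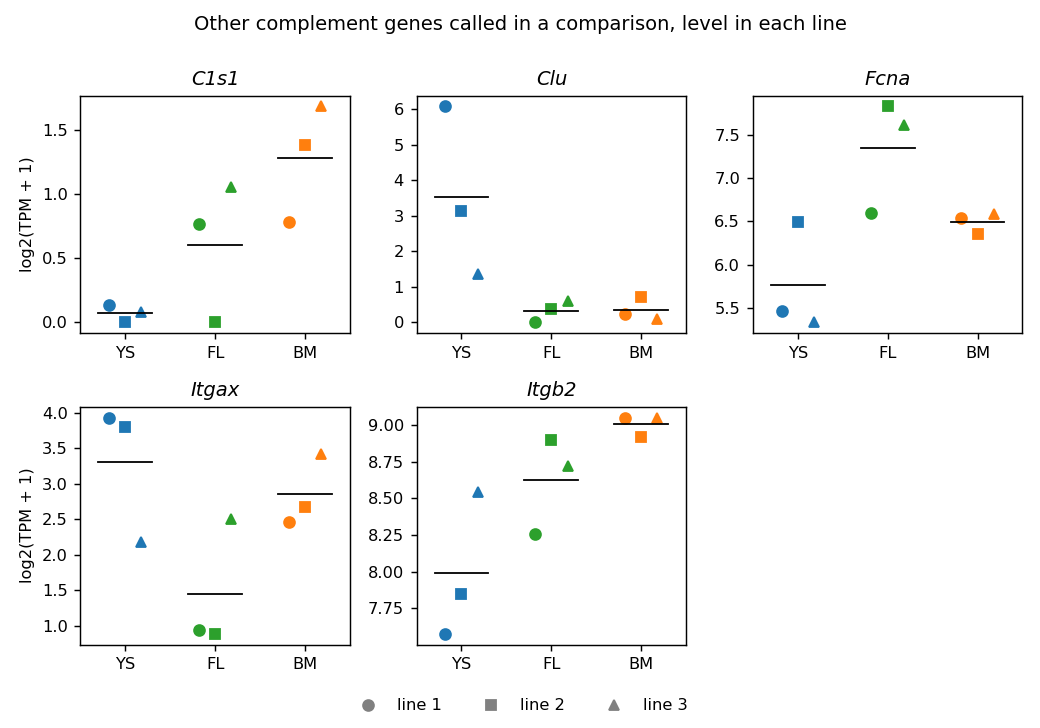
Levels of the 5 other complement genes that were called in a comparison, as log2(TPM + 1) in each line, with axes that differ between panels and do not start at 0. Symbols mark lines 1, 2 and 3 and the black bar the mean of the group (n = 3). Clu was high in YS line 1, Itgb2 had its lowest mean in YS lines and its highest in BM lines, and Fcna had its highest mean in FL lines.

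In YS against FL lines, Clu and Itgax were called higher and Fcna lower, 3 of the 11 genes beside 3.79% of all tested genes. Fcna, for ficolin A, a starter of the lectin pathway, was at 43.0, 89.3 and 39.2 TPM in the YS lines, 95.6, 227 and 195 TPM in the FL lines and 92.1, 80.5 and 95.1 TPM in the BM lines. All FL lines were above all YS and BM lines (log2 fold change of YS against FL lines -1.59 ± 0.37 (SE), adjusted p = 0.0519, limma). For Clu, which owed its test to the YS lines, the log2 fold change was 3.21, and with no filter on low values it was not called (adjusted p = 0.132, limma). Itgax, the alpha chain of CR4, was at 14.3, 12.9 and 3.53 TPM in the YS lines, 0.92, 0.85 and 4.68 TPM in the FL lines and 4.50, 5.41 and 9.71 TPM in the BM lines, and the YS and FL lines overlapped (log2 fold change 1.86 ± 0.58, adjusted p = 0.0942, limma). Leaving out FL line 2 or FL line 3 ended all 3 calls, and leaving out FL line 1, any 1 BM line, YS line 1 or YS line 2 ended those of Clu and Itgax. Without YS line 3, the call of Clu was lost. Where these genes were still tested, the adjusted p (limma) without the line was between 0.102 and 0.249.

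The other 6 tested genes were not called in any comparison. Itgam, the alpha chain of CR3, was at 196 to 394 TPM over the 9 lines, and Cr1l, which encodes the membrane inhibitor Crry, at 66.3 to 98.6 TPM. Cr1l was lower in YS than in BM lines by a log2 fold change of -0.39 (adjusted p = 0.0151, limma). It was also lower in FL than in BM lines, by -0.33 (adjusted p = 0.0351, limma). Both were under the 2-fold threshold. C5ar2, the second receptor for C5a and the gene next to C5ar1 on chromosome 7, was at 3.41, 9.92 and 22.8 TPM in the YS lines, with YS line 1 the lowest as for C5ar1, and at 9.19 to 10.03 TPM in the BM lines. C1ra was at 14.2 to 39.3 TPM, with 42.4% of its 75-nt windows also in C1rb or Gm18840. Cd59a, an inhibitor of the membrane attack complex, was at 2.75 to 21.1 TPM. C8g was at 2.75 to 4.77 TPM and overlaps Fbxw5.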

How the data were processed

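Poly(A)-selected, strand-specific libraries of 9 macrophage lines were sequenced by the authors as single reads of 75 nt, and TPM were deposited. The submitters' processing notes name Trim Galore 0.6.6, STAR 2.7.9a and RSEM 1.3.3, while the genome build and annotation are not given in the sources used here. Groups and line numbers came from the sample labels. The paper's own tests used raw counts, which were not used here. TPM are not counts and hold no depth, so counting intervals and floors cannot be had, and precision was judged from the 3 lines of each group.

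Values were analysed as log2(TPM + 1), on which changes of low genes come out smaller than they are. Genes that reached 1 TPM in 3 or more libraries were fitted with limma 3.58.1 in R 4.3.3, in a linear model over all 9 lines with an intensity trend. Benjamini-Hochberg adjustment ran over the 11753 genes of each comparison. A gene was called where the adjusted p was under 0.1 and the change over 2-fold, as in the paper. The fit was tested on simulated data. An exact permutation test of 3 lines against 3 cannot go below a two-sided p of 0.1.

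The 9 genes, the 42 other complement genes and the marker lists were chosen with earlier results of these data known. One further complement gene is not reported here. Of the other complement genes, those called in a comparison are named with their values. For each of the 9 genes whose SD of log2(TPM + 1) was at least 1, the 3 tested genes nearest in pattern are named, and of the markers those that reached 5 TPM. Other genes, such as Vsig4 and Masp1, were named after their values were seen. Shared 75-nt windows were counted in transcripts of GENCODE M21, and gene order and promoters came from RefSeq tables of GRCm38.p6. As alternatives, pseudocounts of 0.1 and 4, no filter or one of 5 TPM, quantile and median-of-ratios scaling, and a fit without the trend were tried, as were other thresholds, other lines in the fit and the line number as a replicate block. The labels give the lines the same numbers in each group with no statement that they are pairs.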

Additional observations from a re-analysis of the deposited data

How the results depend on the processing

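The 9 genes gave 499 log2 fold changes under alternatives, of which 464 kept their direction and their side of the thresholds, 19 lost a call, 8 gained one and 8 changed sign. The sign of C3ar1 between FL and BM lines turned to -0.034 with median-of-ratios scaling, and without 1 line it ran from -0.16 to 0.39. Its value between YS and FL lines ran from -0.057 to 0.503 without 1 line. C5ar1 between YS and BM lines ran from -0.61 to 0.66 without 1 line and was 0.71 without YS line 1 and BM line 2 together, an alternative chosen after seeing the data. Cfp between YS and FL lines ran from -0.94 to 0.17 without 1 line and was 0.17 without both.

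The number of the 9 genes called was 3 to 4 (YS against BM lines) and 3 to 5 (FL against BM lines) under all alternatives, and 0 to 1 between YS and FL lines without 1 line. With median-of-ratios scaling the BM means were 129 TPM for C3 and 384.6 TPM for C3ar1, beyond the SD of the group. The other complement genes called between YS and FL lines, 3 with all lines, were 1 with a pseudocount of 4, 1 with no filter, 0 with only the 6 lines compared, 0 at a false discovery rate of 0.05, 0 without both lines above and 0 to 2 without 1 line. Between YS and BM lines there were 3, with 1 under a filter of 5 TPM, 0 without both lines and 0 to 3 without 1 line. Between FL and BM lines there were 0, with 1 in the fit of 6 lines, 1 with no fold threshold and 0 to 1 without 1 line. The cause was not tested.

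Same-numbered lines did not deviate together (r between -0.118 and 0.0878), nor did every line go best with its own number. With the replicate block, 3 of the 9 genes were called between FL and BM lines, without C3 (adjusted p = 0.123, limma), and 1 of the other genes was called between YS and FL lines. Cfb fell below the filter at 5 TPM, and also in the fit of 6 lines except between YS and FL lines. Precision is limited by 3 lines per group, and the depth of the libraries is unknown.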
